A study of Mus musculus with 30 samples.

Results

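RP23-8J15.1, RP23-8J15.2, RP23-8J15.3 and RP23-8J15.4 are mouse transcripts named after a single genomic clone, RP23-8J15, and labelled a cluster of long intergenic noncoding RNAs (lincRNAs). They were chosen by their small p-values between sperm of treated and control males at 46 days, together with the shared clone name, so their difference there is described and not tested. The sperm table of 46 days held 4 of the 4 among its 3082 features, and that of 24 h held 1 of them, RP23-8J15.1, among 16242. No annotation used here lists these names, so their position, strand, exons, length and sequence are not given, and that they are lincRNAs rests on the label. With no lengths, their levels are not ranked against each other.

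LincRNAs are long RNAs transcribed between protein-coding genes without a long reading frame, and the testis makes an unusually wide range of them. Mature sperm hardly transcribe, so the RNA they carry was made earlier in the testis or taken up on the way through the epididymis. Tesaglitazar activates the nuclear receptors PPARα and PPARγ, which switch on genes of lipid uptake, oxidation and storage.

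The comparison asks whether activating these receptors in males changes the RNA of their sperm. C57Bl/6J males 3 months old received intraperitoneal tesaglitazar at 10 µg per kg (Tesa-inj) or DMSO in saline (Vehicle-inj), 2 times a week for 4 weeks. Sperm of the cauda epididymis, taken by swim-up and treated to lyse somatic cells, was sequenced 46 days after the last injection as rRNA-depleted total RNA (7 Tesa-inj and 7 Vehicle-inj libraries) or 24 h after it as polyadenylated RNA (4 and 4 libraries). The library names run from KG8-01 to KG8-14 at 46 days and from ai_1 to ai_8 at 24 h. The study's methods count n in animals once outliers were taken out, and the n that the study states with its results on Tesa-inj sperm at 46 days is below the number of Tesa-inj libraries in the table. No label ties a library to an animal or names one as taken out, so all libraries of the tables are used, the fits at 46 days are also given without single libraries, and p-values measure the spread between these samples.

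Library totals ran from 4538102 to 13513816 counts at 46 days and from 15337589 to 27709990 at 24 h. Beyond the top 5 features the table of 46 days held 158820 counts in KG8-02 (Tesa-inj, the fewest), 569646 in KG8-12 (Tesa-inj) and 7119414 in KG8-14 (Vehicle-inj, the most). The scaling factors that edgeR's TMM method gave to make libraries comparable ran accordingly from 0.0981 in KG8-02 to 8.15 in KG8-14, with 0.316 in KG8-12. Lars2, a gene for a mitochondrial tRNA ligase, made up 92.1 to 212 of every 1000000 counts in KG8-01 to KG8-10 and 1458 to 4128 in KG8-11 to KG8-14. The label check for sperm was met in that all 14 of 14 late spermatid and sperm markers were in the table, with Prm2 as the most abundant, and their summed level was 439 to 1020 counts per 1000000 after TMM scaling (CPM). KG8-02 and KG8-14 thus form the ends of the range in these counts and factors. KG8-12 does not, since KG8-05 (443091) and KG8-06 (525562) had fewer counts beyond the top 5 features. KG8-12 is set apart by the levels of the members given below, not by these library measures. Fold changes of the members are given with all libraries, without KG8-12 and without both KG8-12 and KG8-02. Other results are given without these libraries only where stated.

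In the total RNA of 46 days, RP23-8J15.1 had 7.92, 16.1 and 1224 CPM as lowest, median and highest of the 7 Tesa-inj libraries, and 7.64, 10.9 and 19.2 CPM in the 7 Vehicle-inj libraries. The highest Tesa-inj library was KG8-12, KG8-02 came next with 37.3 CPM on 32 counts, and the other 5 lay within the Vehicle-inj range. RP23-8J15.2 had 7.81, 14.3 and 813 CPM in Tesa-inj and 5.93, 11.0 and 18.3 CPM in Vehicle-inj. Again KG8-12 was highest and KG8-02 second, with 36.1 CPM on 31 counts, while the remaining 5 overlapped the controls.

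RP23-8J15.3 was counted most thinly, with 0.446, 3.71 and 397 CPM in Tesa-inj and 1.11, 3.01 and 3.85 CPM in Vehicle-inj. It reached both ends of the series in Tesa-inj: KG8-01 and KG8-04 had 4 counts each and lay below every control library, KG8-02 had 27.9 CPM on 24 counts, and KG8-12 had 1005 counts. RP23-8J15.4 had 7.93, 14.3 and 1071 CPM in Tesa-inj and 2.81, 6.95 and 13.6 CPM in Vehicle-inj. Here 4 Tesa-inj libraries exceeded every Vehicle-inj library, KG8-12, KG8-02 (69.8 CPM on 60 counts), KG8-05 (20.5 CPM) and KG8-01 (14.3 CPM), and the other 3 overlapped them. The corresponding numbers of Tesa-inj libraries above every control were 2, 2 and 3 for RP23-8J15.1, RP23-8J15.2 and RP23-8J15.3. Of the 2262 mRNAs and lincRNAs tested 42.5% had 2 or more such libraries, 18.1% had 3 or more and 6.23% had 4 or more.

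Group means carried KG8-12 with them. In Tesa-inj RP23-8J15.1 averaged 190 ± 456 CPM (SD, n = 7), or 17.6 ± 10.2 CPM (SD, n = 6) without KG8-12, and the controls averaged 12.4 ± 4.87 CPM (SD, n = 7). For RP23-8J15.4 the averages were 173 ± 397 CPM (SD, n = 7), 22.8 ± 23.4 CPM (SD, n = 6) without that library, and 7.70 ± 3.59 CPM (SD, n = 7) among controls. In bulk RNA, fewer cells of a type and less RNA per cell cannot be told apart.

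**Figure D1:**
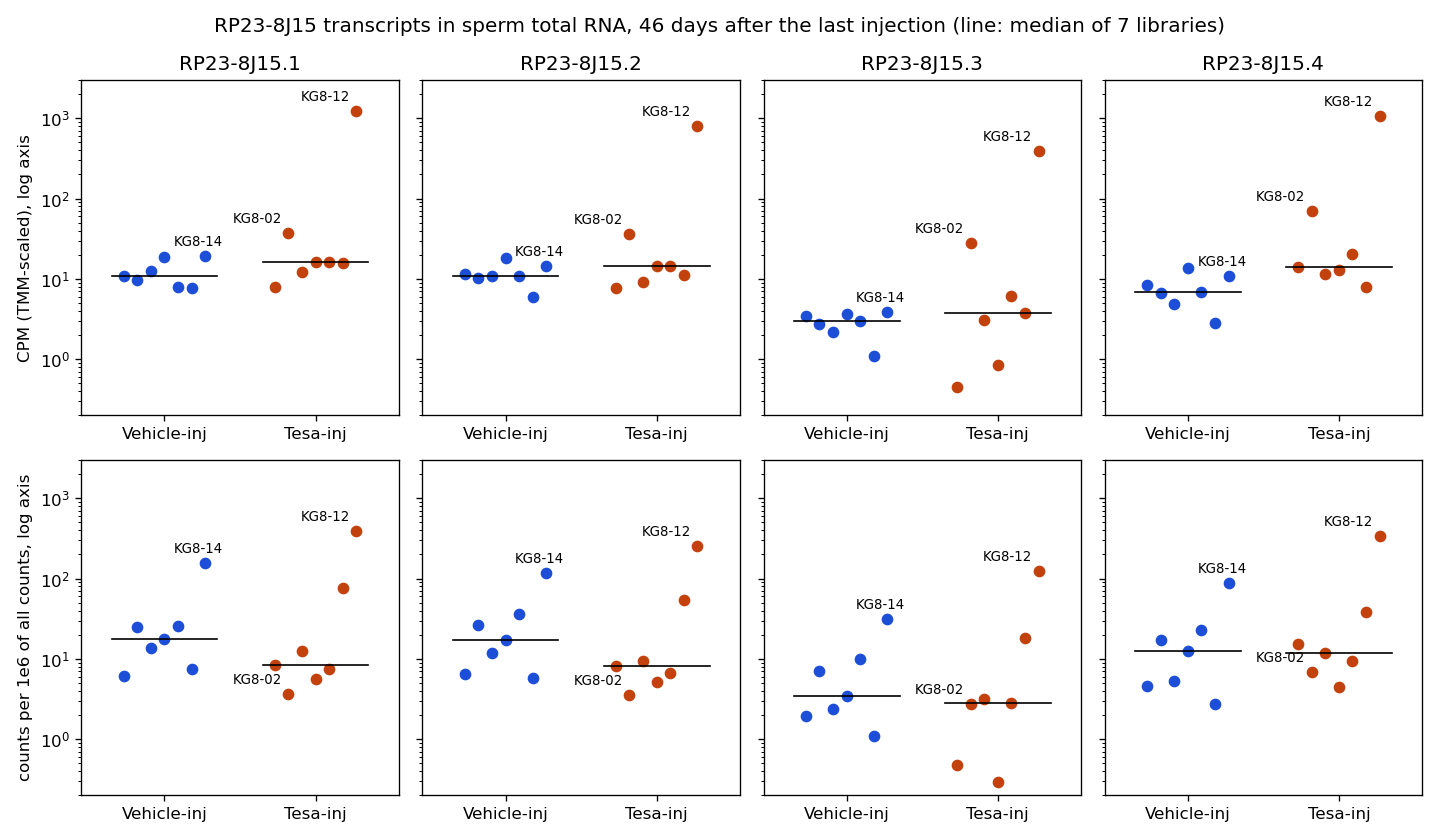
CPM after TMM scaling (top) and counts per 1000000 of all counts (bottom), on log axes, of each RP23-8J15 transcript in the 7 Vehicle-inj and 7 Tesa-inj libraries of 46 days; points are libraries and lines are group medians. KG8-12 is highest in each panel, while KG8-02 is second highest after TMM scaling and below the Tesa-inj median by all counts, where KG8-14 of the control group comes second.

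The fitted contrast at 46 days, Tesa-inj over Vehicle-inj, was a log2 fold change of 3.93 (SE 1.15) for RP23-8J15.1, 3.45 (SE 1.06) for RP23-8J15.2, 4.43 (SE 1.29) for RP23-8J15.3 and 4.48 (SE 1.15) for RP23-8J15.4. Without KG8-12 the same values were 0.33 (SE 0.32), 0.19 (SE 0.32), 0.66 (SE 0.67) and 1.31 (SE 0.47), and without both KG8-12 and KG8-02, a choice made after seeing the data, they were 0.09, -0.09, -0.07 and 0.75. So the first 3 were within about 1 SE of 0 once KG8-12 was left out, and RP23-8J15.2 and RP23-8J15.3 changed sign without the pair, while RP23-8J15.4 stayed positive in all 3 fits. The median log2 fold change was 4.18 over the members beside 0.03 over the 2262 features tested, and 0.49 beside 0.01 without KG8-12.

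Each of the 4 members passed the filter on low counts. All 4 were among the 112 tested features with an unadjusted p under 0.05 and a higher value in Tesa-inj, 4.95% of those tested, a count that the choice itself fixed. Without KG8-12 only RP23-8J15.4 was under 0.05, 1 of 71 such features (3.19% of 2226 tested), of which 25 were higher in Tesa-inj. The same held with limma voom on all 14 libraries, whose quality weights were lowest for KG8-12 (0.182, and 0.677 to 1.95 in the others). There 134 of 2262 features were under 0.05, 47 of them higher, and the log2 fold changes of the members were 0.25, -0.00437, -0.34 and 0.92. DESeq2 gave 0.38, 0.26, 1.03 and 1.40, again with only RP23-8J15.4 under 0.05, as were 112 of 2262 features. RP23-8J15.4 was chosen by its p-value in these same libraries, so these fits are no independent support for it. The unadjusted p-values that chose them were 0.00138 for RP23-8J15.4, 0.00356 for RP23-8J15.3, 0.00371 for RP23-8J15.1 and 0.00524 for RP23-8J15.2, ranks 4, 12, 14 and 16 of 2262. Just outside came Sap130 at 0.00529 with a log2 fold change of -0.51 and Eif4g2 at 0.00553 with 2.44, at ranks 17 and 18. After adjustment edgeR's quasi-likelihood test left 0 features (0%) under 0.05, from 130 without adjustment. DESeq2 and limma voom also gave 0 (112 and 134 without adjustment), and edgeR's exact test gave 12 (0.531%), among them 3 of the members, all but RP23-8J15.2, and 4 mRNAs of the mitochondrial genome. Without KG8-12 the exact test gave 3 features, mt-Cytb, mt-Nd4 and RP24-13G16.1, none of them a member.

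Both the scaling and the set of libraries bore on the size of the contrast. When counts were scaled by library totals in place of TMM, the log2 fold changes were 0.99, 0.63, 1.42 and 1.48 in order of member number, and the median over all tested features shifted to -1.03, from 112 of 130 features higher in Tesa-inj at an unadjusted p under 0.05 to 5 of 37. By that scale KG8-14, a control library, had 157 counts of RP23-8J15.1 per 1000000, second to 387 in KG8-12, and KG8-02 had 3.65, the fewest. Among KG8-01 to KG8-10 alone, 5 libraries a group, the log2 fold changes were 0.41, 0.20, 0.67 and 1.46. Without KG8-02 these became 0.12, -0.13 and 0.87 for RP23-8J15.1, RP23-8J15.2 and RP23-8J15.4, and RP23-8J15.3 fell below the filter on low counts.

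The level in KG8-12 was 96.9 times the median of the other 13 libraries for RP23-8J15.1, 72.3 times for RP23-8J15.2, 129 times for RP23-8J15.3 and 99.9 times for RP23-8J15.4. Among the 2262 tested features these ratios ranked 11, 14, 8 and 10. KG8-12 was the highest library for 603 (26.7%) of the tested features, and 86 (3.80%) were there at least 10 times the median of the others, so other features shared the excess in that library. The ranks of the members follow in part from their choice by p-values to which KG8-12 contributed, since without it their p-values ranked 494, 992, 527 and 18 of 2226 in order of member number. In rank by counts RP23-8J15.1 stood at 22 of 3082 features in KG8-12 and between 451.5 and 1344 in the other 13.

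Ratios between members within a library do not depend on scaling. RP23-8J15.2 over RP23-8J15.1 moved little, with a median of 0.879 (range 0.664 to 0.986) in Tesa-inj and 0.965 (0.756 to 1.39) in Vehicle-inj, though 3 Tesa-inj libraries fell below every control. RP23-8J15.4 over RP23-8J15.2 had a median of 1.32 (0.705 to 1.94) in Tesa-inj and 0.646 (0.452 to 0.741) in Vehicle-inj, and 6 of 7 Tesa-inj libraries, 5 of 6 without KG8-12, lay above every control library. RP23-8J15.4 over RP23-8J15.1 had a median of 0.930 (0.508 to 1.88) against 0.685 (0.368 to 0.881), with 4 of 7 Tesa-inj libraries above the controls. Ratios with RP23-8J15.3 went both ways: RP23-8J15.3 over RP23-8J15.2 was above every control in 5 Tesa-inj libraries and below every control in the other 2, KG8-01 and KG8-04 with 4 counts each, with a median of 0.337 (0.0571 to 0.774) against 0.263 (0.186 to 0.302). RP23-8J15.3 over RP23-8J15.1 was above every control in 1 and below in 2, and RP23-8J15.4 over RP23-8J15.3 above in 3 and below in 1. RP23-8J15.4 made up a larger share of the cluster's counts in Tesa-inj, 31.8% as median (20.6% to 46.9%), than in Vehicle-inj, 22.6% (15.97% to 24.9%), with overlap between the groups. Of the 6 ratios, RP23-8J15.4 over RP23-8J15.2 had the most Tesa-inj libraries above every control. How often ratios of other features part the groups in this way was not counted. Differences in the members' ratios and shares were not tested, since the same libraries chose the members.

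Co-variation is described within the 7 Vehicle-inj libraries, where no difference between groups enters. The levels of these libraries also went into the p-values that chose the members. The permutation p-values below therefore describe these libraries and are no independent test. Pearson's r of log2 CPM over the 6 pairs of members ran from 0.64 to 0.96 with a median of 0.87, positive in 6 of 6 pairs, and 4 of 6 pairs had an adjusted p under 0.05 in a two-sided exact permutation test over pairings, with adjusted p-values from 0.00298 to 0.1097. Without adjustment 5 of the 6 were under 0.05, beside 7.16% of the 2557191 pairs of all tested features in the same libraries, whose median r was 0.07. The closest pair was RP23-8J15.2 with RP23-8J15.4 (r 0.96, exact permutation p 0.000992, adjusted 0.00298; rho 0.96, p 0.00278, adjusted 0.00833), and the loosest was RP23-8J15.1 with RP23-8J15.3 (r 0.64, p 0.1097, adjusted 0.1097; rho 0.75, p 0.0663, adjusted 0.0795). Spearman's rho ran from 0.71 to 0.96, with 3 of 6 pairs at an adjusted p under 0.05. Without the 2 libraries farthest from the median of the first member, r ran from 0.35 to 0.85, so the size of the relation rested in part on those libraries, KG8-09 and KG8-13 or KG8-14 in 5 of the pairs. Within the 5 control libraries from KG8-06 to KG8-10, as a description, r ran from 0.31 to 0.91 with a median of 0.76, and the 2 others, KG8-13 and KG8-14, are too few for an r.

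Over all 14 libraries, as a description, r ran from 0.89 to 0.99 and rho from 0.53 to 0.89, and the points share KG8-12. Over 13 libraries without it r ran from 0.62 to 0.92, and over 12 without KG8-02 as well from 0.18 to 0.84. The pair that stayed closest over those 12 was RP23-8J15.1 with RP23-8J15.2 at 0.84, and the loosest was RP23-8J15.3 with RP23-8J15.4 at 0.18, the reverse of the tight relation of that pair among controls (0.95).

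Over all 14 libraries the members followed the summed mRNAs of the mitochondrial genome, which code for subunits of the respiratory chain and ATP synthase, more closely than any other measure taken per library. Of the 13 such mRNAs 5 were in the table of 46 days, mt-Co1 being the most abundant, and their summed level was 5618 CPM in KG8-12, 214 CPM in KG8-02 and 21.2 to 76.0 CPM in the other 12 libraries. In each library the counts of the members together were 0.624 to 0.887 of the counts of those 5 mRNAs, with a median of 0.801, while the members' own summed level ran from 17.5 to 3505 CPM, a 200-fold range. KG8-12 alone made the upper end, KG8-02 came next with 171 CPM, and KG8-05 followed with 57.4 CPM. Within Vehicle-inj the level ran over a 3.12-fold range and the ratio over a 1.35-fold range. The ratio did not separate the groups, averaging 0.774 ± 0.0957 (SD, n = 7) with tesaglitazar and 0.780 ± 0.0775 (SD, n = 7) with vehicle, and KG8-12 had the lowest value.

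The log2 summed level of the mitochondrial mRNAs and the mean log2 CPM of the members had r 0.99 and rho 0.88 over 14 libraries, r 0.95 over 13 without KG8-12 and r 0.87 over 12 without KG8-02 as well. Within the 7 Vehicle-inj libraries r was 0.97 and rho 0.86, and r was 0.85 without the 2 farthest libraries. Within the 6 Tesa-inj libraries other than KG8-12 r was 0.94 and rho 0.66, and r fell to 0.37 without the 2 farthest. These are descriptions over libraries that share their scaling, chosen after the values were seen. The log2 ratio of the members to the mitochondrial sum had an SD of 0.16 over the 14 libraries, and single features gave 0.59 (mt-Co1, the smallest of 2258) and a median of 2.01, where a sum over several features varies less by counting than a single one does. At 46 days the 5 mRNAs had log2 fold changes of 3.87 (mt-Co1) to 5.79 (mt-Nd4) with all libraries, and of -0.12 (mt-Co1), 1.21 (mt-Nd5), 1.88 (mt-Nd1), 1.96 (mt-Cytb) and 2.32 (mt-Nd4) without KG8-12, where edgeR's quasi-likelihood test gave each an adjusted p of 0.999. In the 6 other Tesa-inj libraries mt-Co1 averaged 33.5 ± 9.59 CPM (SD, n = 6), beside 35.3 ± 15.43 CPM (SD, n = 7) among the controls, while mt-Nd4 had 51.2 CPM on 44 counts in KG8-02, 1.21 to 9.15 CPM in the other 5 Tesa-inj libraries and 0.656 to 2.50 CPM among the controls.

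**Figure D2:**
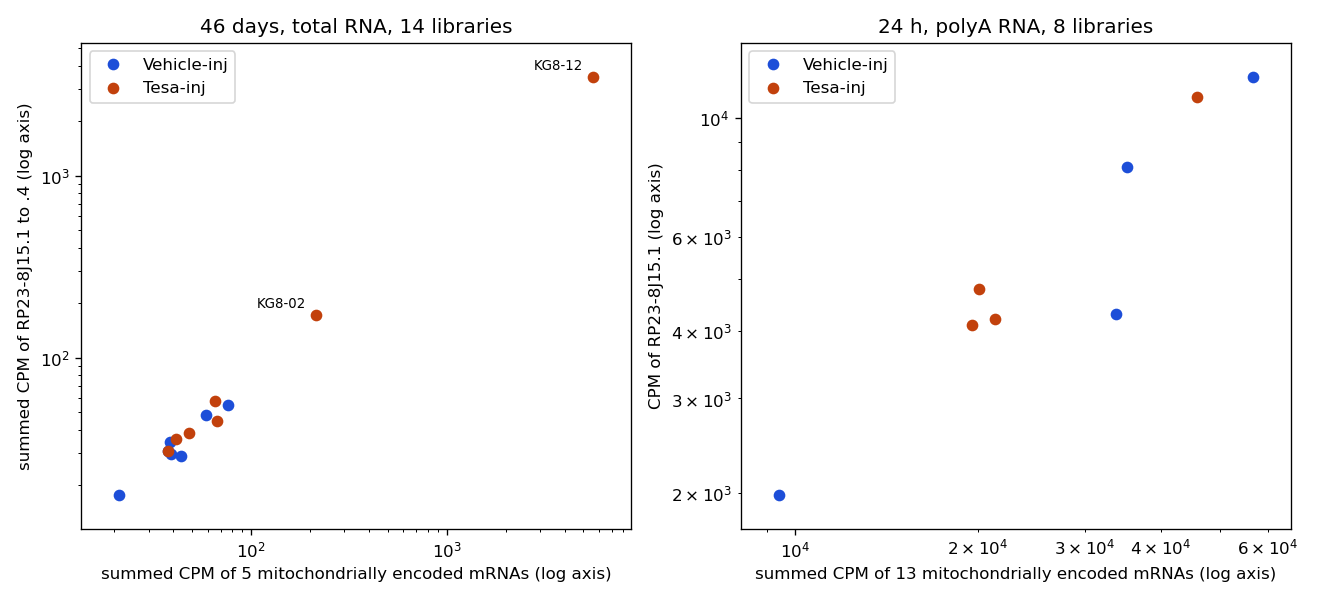
Summed CPM of the RP23-8J15 transcripts against summed CPM of the mitochondrially encoded mRNAs, log axes, each point a library; left, 14 libraries of 46 days (4 members, 5 mRNAs), right, 8 libraries of 24 h (RP23-8J15.1, 13 mRNAs). The points lie along a line in both panels, with KG8-12 at 3505 and 5618 CPM and KG8-02 at 171 and 214 CPM, and the groups overlap apart from these 2.

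Other library measures had an r nearer to 0 over the 14 libraries of 46 days. The level of the members had r -0.02 with the library total, -0.33 with the counts beyond the top 5 features, -0.45 with the TMM factor and 0.36 with Lars2, and KG8-02, second highest for the members, had the fewest counts outside the top 5. Of the epididymal epithelium markers 2 of 31 were in the table, with Cftr the more abundant, at 3.49 to 19.4 CPM in sum. Their r was -0.01 over 14 libraries, -0.65 over the 13 without KG8-12 and -0.92 in the 6 Tesa-inj libraries without it. The values of -0.65 and -0.92 include KG8-02 with its 3 counts. Over the 12 libraries without KG8-12 and KG8-02 r was -0.06, and in Vehicle-inj it was 0.25. Leaving out the 2 farthest libraries of each set gave, in the same order, 0.23, -0.61, -0.63, -0.74 and -0.10. The late spermatid and sperm markers had r -0.43 over 14 libraries, 0.04 over 13 and 0.40 over 12. In Vehicle-inj r was 0.70, and in the 6 Tesa-inj libraries without KG8-12 it was -0.68. Without the 2 farthest libraries of each set all were negative, in the same order -0.49, -0.53, -0.29, -0.36 and -0.82. The summed noncoding RNAs of a list (10 of 53) had r 0.82, which fell to 0.03 without the 2 farthest libraries. Rn7s1, a structural RNA, made up most of that sum, with 25048 of 28588 CPM in KG8-12 and 12447 of 12817 CPM in KG8-01. Of the leukocyte markers 1 of 23 was listed, H2-Eb1, at 3.16 to 8.25 CPM (r -0.62, and 0.58 without the 2 farthest). None of the 5 blood and 12 smooth muscle and fibroblast markers was listed, and none of the listed markers was at 0 in a library. The part of depth, of these cell types and of mitochondrial RNA in the level of the members was not tested.

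Salmon, the program that made the estimates, divides a read that matches several transcripts among them, and such divisions leave decimals. RP23-8J15.1 was not a whole number in 14 of 14 libraries of 46 days, while RP23-8J15.2, RP23-8J15.3 and RP23-8J15.4 were whole in 12 of 14 each. The sum of RP23-8J15.1 and mt-Co1, neither of them whole in any of the 14 libraries, was whole within 0.0015 in 7 of them, and the next of the 3082 features gave a whole sum in 2. At 24 h, RP23-8J15.1, mt-Co1 and RP23-407K8.3, a transcript named after another clone, added up to a whole number in 8 of 8 libraries, and the next of the 16242 features in place of RP23-407K8.3 did so in 2. These sums were looked for after the values were seen.

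RP23-8J15.1 was 19.3% to 47.3% of its joint counts with mt-Co1 at 46 days, and 44.7% to 53.2% of the joint counts with both features at 24 h. The joint counts, which a division of reads between these features cannot alter, had 25.1, 54.2 and 4643 CPM as lowest, median and highest in Tesa-inj of 46 days and 22.7, 41.4 and 80.01 CPM in Vehicle-inj. KG8-12 was again far above the other libraries, KG8-02 (79.2 CPM) was within the range of the controls, and the remaining libraries overlapped. The log2 fold change of the joint counts was 3.89 at 46 days, beside 3.93 for RP23-8J15.1 alone, and 0.04 (SE 0.28) beside 0.33 without KG8-12. Whether the members share sequence with mitochondrial RNA was not tested, as no sequence of theirs was at hand.

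In the polyadenylated RNA of 24 h, which played no part in the choice, RP23-8J15.1 was among the most abundant features, at rank 12 to 24 of 16242 by counts, with 24487 to 246251 counts a library. Its levels in the Tesa-inj libraries ai_1, ai_3, ai_5 and ai_7 were 10935, 4109, 4803 and 4226 CPM. Vehicle-inj libraries ai_2, ai_4, ai_6 and ai_8 had 8118, 1980, 11946 and 4306 CPM. The groups overlapped throughout, with the highest and the lowest library both among the controls and ai_1 far above the other Tesa-inj libraries.

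At 24 h RP23-8J15.1 averaged 6018 ± 3292 CPM (SD, n = 4) after tesaglitazar and 6588 ± 4377 CPM (SD, n = 4) after vehicle. The log2 fold change was -0.13 (SE 0.58, 95% interval -1.27 to 1.01), with an adjusted p of 1.00 over the 13030 features tested by edgeR's quasi-likelihood test. The interval therefore holds changes of more than 1 log2 unit in either direction, and 2 of 4 Tesa-inj libraries were below every control but ai_4. The sign turned when ai_3, ai_6 or ai_7 was left out, with 0.01, 0.33 and 0.00403, and the joint counts with mt-Co1 and RP23-407K8.3 gave -0.23. The number of features with an adjusted p under 0.05 at 24 h was 0 (0%) by this test, and also 0 by DESeq2, by limma voom and by the exact test of edgeR, while 313 (2.40%), 419, 919 and 306 had an unadjusted p under 0.05. Whether the contrast of RP23-8J15.1 differed between 24 h and 46 days was not tested, since the tables also differ in RNA selection.

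Across the 8 libraries of 24 h RP23-8J15.1 ran over a 6.03-fold range in CPM, and its ratio to mt-Co1 over a 1.40-fold range (0.809 to 1.136) and to mt-Co2 over a 1.42-fold range (0.505 to 0.716). Both are mRNAs of cytochrome c oxidase subunits. The lower end of the range in CPM was ai_4 alone, at 1980 CPM, and the next lowest library, ai_3, had 4109 CPM. The SD of the log2 ratio to RP23-8J15.1 was 0.16 for mt-Co2 and 0.18 for mt-Co1, positions 1 and 2 of 10822 features, whose median was 1.03. All 13 mitochondrial mRNAs were in the table, and RP23-8J15.1 was 0.128 to 0.239 of their summed counts. With their summed CPM it had r 0.94 and rho 0.93 over the 8 libraries, and r 0.82 without the 2 farthest.

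Markers of other cells were also present at 24 h. Late spermatid and sperm markers (14 of 14, Odf1 most abundant) summed to 3908 to 12589 CPM, with r 0.65 to RP23-8J15.1, and epididymal epithelium markers (17 of 31, Gpx3 most abundant) to 3191 to 5957 CPM, with r 0.48. Leukocyte markers (23 of 23, Cd52 most abundant) summed to 1359 to 2735 CPM with r 0.57, and blood markers (4 of 5, Hba-a2 most abundant) to 53.5 to 270 CPM with r 0.19. Smooth muscle and fibroblast markers (12 of 12, Fn1 most abundant) summed to 70.4 to 259 CPM with r -0.83. Without the 2 farthest libraries these r were -0.06, -0.17, 0.00381, -0.04 and -0.53. Markers at 0 were Dnah17, Rnase9, Adgre1 and Myh11 in 1 library each and Actg2 in 3, and their part in the level of RP23-8J15.1 was not tested.

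A further transcript of the clone that is not a member, RP23-8J15.5, was in the table of 24 h only. It had 208, 71.1, 0 and 68.9 CPM in ai_1, ai_3, ai_5 and ai_7 of Tesa-inj and 0, 0, 207 and 247 CPM in ai_2, ai_4, ai_6 and ai_8 of Vehicle-inj, so both groups held libraries at 0 and above 200. Its log2 fold change was -0.39 (SE 1.88), with an adjusted p of 1.00 by edgeR. In the 5 libraries where it was not at 0, its sum with mt-Nd3 was whole in 5, beside 2 for the next feature.

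The features most like the members over the 14 libraries of 46 days, by Pearson's r with the mean log2 CPM of the members, were Abhd2 (0.96), a lipid hydrolase of the sperm membrane, Rmrp (0.95), the RNA of the RNase MRP enzyme, Canx (0.95), a chaperone of the endoplasmic reticulum, mt-Co1 (0.95), complement factor C3 (0.94), mt-Cytb (0.94), mt-Nd1 (0.93) and Fam120a (0.93). All 5 mitochondrial mRNAs were within the first 18 of 3078 features, with r from 0.91 to 0.95 and a median over all features of -0.01. Over the 12 libraries without KG8-12 and KG8-02 their positions were 2 (mt-Co1), 154 (mt-Nd1), 428, 532 and 648, with r from 0.26 to 0.82, and in the 7 Vehicle-inj libraries 6 (mt-Co1), 52, 239 (mt-Nd1), 528 and 596. Over the 13 libraries without KG8-12 alone mt-Co1 was at 55 (r 0.64) and the other 4 at 4 to 16, so each position depended on the set of libraries. Over the 13 libraries without KG8-12 the list was Ralgps1 (0.88), Angel1 (0.84), Rasal2 (0.80), mt-Nd1 (0.80), Chd8 (0.78), Rsph3b (0.76), Spag17 (0.76) and Abhd2 (0.75), so only Abhd2 and mt-Nd1 were in both. At 24 h the features most like RP23-8J15.1 over 8 libraries were mt-Co2 (0.99), mt-Co1 (0.98), RP24-282C4.11 (0.96), Scnn1a (0.95), Cox5a (0.95), Katna1 (0.94), Sumo3 (0.94) and mt-Nd1 (0.93).

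Other noncoding RNAs give a measure of how far the pattern was shared. Of a list of 53 noncoding RNAs, mostly long noncoding RNAs, 10 were in the table of 46 days. In KG8-12 8 of these were highest, as were 26.7% of all 2262 tested features. Among the 8 were Malat1 (989 CPM, 49.6 to 115 in the others), an abundant nuclear RNA, and Neat1 (178 CPM, 4.22 to 24.8), the scaffold of paraspeckles. The same held for Kcnq1ot1 (43.5 CPM), an imprinted antisense RNA, Lncpint (11.5 CPM), Rmrp (166 CPM), Rpph1 (324 CPM), the RNA of RNase P, Rn7sk (1818 CPM) and Rn7s1 (25048 CPM), and not for Snhg14 and Tug1. Rmrp, Rpph1, Rn7sk and Rn7s1 are structural RNAs, not long noncoding RNAs of the usual kind, and were not among the tested features. In KG8-02 Malat1 (61.7 CPM) and Neat1 (8.15 CPM) were within the range of the other libraries, while Rmrp had 9.31 CPM, its highest value outside KG8-12, and without KG8-12 Malat1 averaged 73.0 ± 23.3 CPM (SD, n = 6) in Tesa-inj beside 66.4 ± 12.0 CPM (SD, n = 7) in controls. Of the 6 that were tested, 4 had a higher and 2 a lower fitted value in Tesa-inj, 2 with an unadjusted p under 0.05 (Malat1 and Neat1, log2 fold changes 1.62 and 2.05, or 0.11 and 0.55 without KG8-12) beside 130 (5.75%) of all 2262 tested, and 0 with an adjusted p under 0.05 by edgeR, as by DESeq2 and limma voom over all features. At 24 h 32 were in the table and 26 tested, 14 higher and 12 lower, with 0 at an unadjusted p under 0.05 by edgeR's quasi-likelihood test.

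Transcripts named after other clones are given beside all tested features, and a difference between them was not tested. Of the 378 features named RP23 or RP24 at 46 days, 339 outside the cluster were tested, with a median log2 fold change of -0.04 (0.03 over all tested), 141 higher (41.6%, beside 55.4% of all tested) and 198 lower in Tesa-inj, and 69 (20.4%) of them highest in KG8-12, as were 26.7% of all tested. At 24 h 1586 of 2491 such features were tested, 679 higher and 907 lower in Tesa-inj, with a median of -0.10 (-0.01 over all tested). A clone with 4 or more features in the table of 46 days was rare, 3 of 344.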

How the data were processed

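The authors trimmed reads with Trim Galore 1.16 and quantified them with Salmon 0.11.2 against GENCODE M18 transcripts, piRNA precursors and transposable elements (GRCm38), and the deposited values are estimated counts per gene or repeat family, not normalized. The filter behind each deposited table is not stated. Estimated counts were rounded, and mRNAs and lincRNAs with more than 20 counts in at least 6 (46 days) or 4 (24 h) libraries were tested in R 4.3.3 with edgeR 4.0.16, a quasi-likelihood fit with TMM factors over all features and Benjamini-Hochberg adjustment. DESeq2 1.42.0 and limma 3.58.1 (voom with quality weights) served as alternatives. Log2 CPM used a prior count of 2. The quasi-likelihood fit was tested on simulated data. Named features are the members and the 8 with the highest r to them over 14, 13 and 8 libraries. Also named are the noncoding RNAs of a list, library measures and the 2 features next after the last member by p. Any other was named with its values in view. The members and all lists were chosen with earlier results of these data known. Serum small RNA was not used.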

Additional observations from a re-analysis of the deposited data

Results flagged for a closer look

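In 5 of the 10 groups of member values examined, the highest sample lay far from the others by Dixon's criterion, the gap to its nearest neighbour over the range of the group; chance gives this in about 1 in 20 groups. In the Tesa-inj group of 46 days it was the same library, KG8-12, for each of the 4 members, with 1224 CPM of RP23-8J15.1, 813 CPM of RP23-8J15.2, 397 CPM of RP23-8J15.3 and 1071 CPM of RP23-8J15.4, so these are 4 readings of 1 library and not 4 separate observations. The members were chosen by p-values that rest in part on this library, so the rate of 1 in 20 does not apply to these 4 groups. The same library held 5618 CPM of mitochondrially encoded mRNAs. At 24 h it was ai_1 of the Tesa-inj group, with 10935 CPM of RP23-8J15.1 beside 4109 to 4803 CPM in the other 3. No cause was tested.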

How the results depend on the processing

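At 46 days the log2 fold changes of RP23-8J15.1 to RP23-8J15.4 (3.93, 3.45, 4.43 and 4.48) were 0.38, 0.26, 1.03 and 1.40 with DESeq2, 0.25, -0.00437, -0.34 and 0.92 with limma voom (quality weights), 0.99, 0.63, 1.42 and 1.48 with library totals, and 0.41, 0.20, 0.67 and 1.46 in KG8-01 to KG8-10. A term for KG8-11 to KG8-14 gave 1.67, 1.48, 2.35 and 2.71. Leaving out 1 library gave 0.33 to 4.20, 0.19 to 3.72, 0.66 to 4.71 and 1.31 to 4.75, each lowest value being that without KG8-12. Chosen after seeing the data, leaving out KG8-12 and KG8-02 gave 0.0885, -0.0903, -0.0715 and 0.75, and the exact test without KG8-12 gave 0.40, 0.27, 1.11 and 1.498. Changes were held against 1 SD between libraries within groups (1.78, 1.69, 2.29 and 1.82), taken with KG8-12 included, and not against the SE. Of 28, 27, 27 and 27 alternatives 20, 19, 20 and 20 changed less than that, with the added term among them for the last 2. Each of these kept KG8-12, so the counts do not show that the contrast holds apart from that library. Why the values differ between these alternatives was not tested.

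The count with an adjusted p under 0.05 at 46 days (0 by edgeR's quasi-likelihood test, 130 unadjusted) was 12 by the exact test and 3 by that test without KG8-12, and 0 by DESeq2 and voom (112 and 134 unadjusted). The unadjusted count was 37 with library totals, 46 in KG8-01 to KG8-10, 76 with the added term, 78 without KG8-12 and KG8-02, 86 by the exact test without KG8-12, and 71 (without KG8-12) to 165 leaving out 1 library, with 86 without KG8-07. At 24 h, 313 became 919 with voom and 142 with library totals, which moved the median of all features to 0.21.

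RP23-8J15.1 at 24 h (-0.13) was 0.0510 with voom and -0.57 to 0.33 leaving out 1 library, positive without ai_3 (0.01), ai_6 (0.33) or ai_7 (0.00403); the other 14 alternatives stayed negative. Adjusted p-values over these alternatives were 0.987 to 1.00.

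The median r of the pairs in Vehicle-inj (0.87) was 0.78 to 0.98 in 10 alternatives, 0.78 to 0.92 leaving out 1 library. Of 60 pair values 51 kept their side of the threshold, 5 lost it, 4 gained it and 0 changed sign. The correlation of pairs at 24 h was not run, as only RP23-8J15.1 is in that table. No paired analysis was possible because library numbers run on across the groups and share none. RP23-8J15.3 had the fewest counts, 4 each in KG8-01 and KG8-04.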
